A study of Mus musculus with 6 samples.

Results

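Transcripts of 7 nuclear genes of the mitochondrial respiratory machinery were measured in the soleus, a slow leg muscle that holds posture, after 1 day of reloading in mice. Reloading is the return of weight bearing to a muscle that had been relieved of it. The genes were chosen by symbol in the platform annotation, with earlier results of these data known. They were the cytochrome c oxidase subunits Cox4i1, Cox5b and Cox6a2 and the enzymes Mdh2 and Pdha1. With them were the mitochondrial transcription factor Tfam and the testis form of cytochrome c, Cyct. Each of the 7 genes had 1 probe, so they made up 7 of the 223 probes on the array. The samples were 6 arrays of C57Bl/6 soleus RNA from cryosections, titled wt and numbered 1 to 6, all in the same group. The titles gave no allele or agent, and the labels did not say whether the samples came from 6 animals, so the spread between them can be partly technical. No unloaded or untouched muscle was analysed here, so no value below is a change caused by reloading.

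Cytochrome c oxidase is the last enzyme of the respiratory chain, which takes electrons from cytochrome c and passes them to oxygen. Its catalytic core is encoded in mitochondrial DNA, and nuclear genes such as Cox4i1, Cox5b and Cox6a2 supply the surrounding subunits, Cox6a2 being the form of heart and skeletal muscle. Pyruvate dehydrogenase, whose catalytic alpha subunit comes from Pdha1, feeds the citric acid cycle, and Mdh2 encodes its mitochondrial malate dehydrogenase. Tfam packs mitochondrial DNA and takes part in its transcription. Soleus is rich in mitochondria, and its slow fibres depend on this machinery.

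Promoter windows were found in the RefSeq table for 5 of the 7 genes, Cox5b, Mdh2, Pdha1, Tfam and Cyct, and those of Cox5b, Mdh2 and Tfam are shown because each held the ETS core described next. Each window runs from 250 bases before to 50 bases after the gene's start, on the gene's strand, 5′ to 3′, in build GRCm38.p6. The Cox5b window is chr1:36691237-36691536 (plus strand), that of Mdh2 is chr5:135778399-135778698 (plus strand) and that of Tfam is chr10:71237995-71238294 (minus strand). Capitals mark matches to any of 7 motifs, searched on both strands.

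Cox5b: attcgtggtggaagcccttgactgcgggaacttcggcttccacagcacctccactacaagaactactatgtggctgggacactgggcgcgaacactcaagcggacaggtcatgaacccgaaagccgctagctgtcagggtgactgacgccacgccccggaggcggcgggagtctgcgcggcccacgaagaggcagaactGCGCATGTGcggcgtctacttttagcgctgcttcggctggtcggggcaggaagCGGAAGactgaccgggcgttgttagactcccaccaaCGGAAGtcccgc

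Mdh2: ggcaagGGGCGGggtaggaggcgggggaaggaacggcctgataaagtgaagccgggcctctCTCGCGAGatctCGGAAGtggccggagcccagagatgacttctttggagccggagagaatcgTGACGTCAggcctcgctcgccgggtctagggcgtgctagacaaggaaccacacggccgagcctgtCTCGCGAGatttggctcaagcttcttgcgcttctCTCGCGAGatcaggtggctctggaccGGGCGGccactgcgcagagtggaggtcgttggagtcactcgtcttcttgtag

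Tfam: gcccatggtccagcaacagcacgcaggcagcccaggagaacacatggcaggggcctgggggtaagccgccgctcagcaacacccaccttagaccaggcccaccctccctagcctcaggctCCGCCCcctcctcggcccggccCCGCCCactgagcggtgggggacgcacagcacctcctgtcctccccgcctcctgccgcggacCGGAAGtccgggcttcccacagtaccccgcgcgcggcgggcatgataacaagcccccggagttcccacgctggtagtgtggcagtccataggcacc

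The motifs, picked after the windows had been read, were the NRF-1 pattern GCGCANGNG, the ETS core CGGAAG, the Sp1 core GGGCGG, the cyclic AMP element TGACGTCA, the palindrome CTCGCGAG, the CCAAT box and the TATA box TATAAA. No 2 matches overlapped in these windows. NRF-1 and the ETS factor GABP are known as regulators of respiratory genes. The Cox5b window held 1 NRF-1 match, GCGCATGTG, starting 51 bases before the start, and 2 ETS matches, from bases 3 and 39 after it. Of all 32851 promoter windows of this length, 9.41% held the NRF-1 pattern and 16.9% the ETS core. The Mdh2 window held the palindrome 3 times, 1 cyclic AMP element, 1 ETS core and 2 Sp1 cores, where 0.919% of all windows held the palindrome and 1.79% the cyclic AMP element. Tfam had 1 ETS and 2 Sp1 matches, Sp1 cores being found in 35.7% of windows. Pdha1 matched 0 of the 7 motifs, and Cyct matched the CCAAT box once, found in 37.4% of windows. The TATA box was in 13.6% of windows and in 0 of these 5. GC made up 62.3% of the Cox5b window, 62.7% of that of Mdh2, 62% of Pdha1, 70.3% of Tfam and 48.3% of Cyct. The median over all windows was 52.7%, and the shares above were not matched for GC. A match says only that these letters are there.

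The arrays differed widely in overall signal. Summed over all probes, the deposited intensities came to 165.3 on replicate 1, 35.2 to 41.3 on replicates 2 to 5 and 13.8 on replicate 6. Some values were below 0, and an array's noise bound was set at the depth of its lowest value below 0, which was 0.0144 on replicate 1 and 0.0011 to 0.0028 on the others. Unless deposited units are named, levels are log2 intensities with each array centred on the median of the 175 probes above 0 on all arrays. The defining genes of muscle fibres were bright: 7 of 13 listed fibre markers were on the array, 7 of these 7 exceeded the noise bound on all 6 arrays, and together they held 10.4% to 18.2% of each array's signal. Markers of other cells held less: 6 of 8 endothelial markers were measured (0.290% to 0.809% of the signal), 3 of 7 adipocyte markers (0.325% to 0.897%) and 5 of 8 fibroblast and matrix markers (0.293% to 0.555%). Of 8 myeloid and inflammatory markers, Il1b and Il6 were measured and their sum was below 0 on every array, and 0 of 4 blood markers were measured. Fewer cells of a type, less RNA per cell and weaker probes cannot be told apart in such samples.

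All 7 genes gave values above 0 on the 6 arrays, beside 78.5% of all 223 probes, and 5 of 7 exceeded the noise bound on all of them, beside 58.3% of the probes. Cox4i1, Cox5b, Cox6a2, Mdh2 and Pdha1 had at least 20 times the bound on every array. Tfam exceeded it on 3 of 6 arrays and Cyct on 5 of 6. Brightness of a probe is not abundance of a transcript, so the levels of different genes are not ranked against each other.

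**Figure D1:**
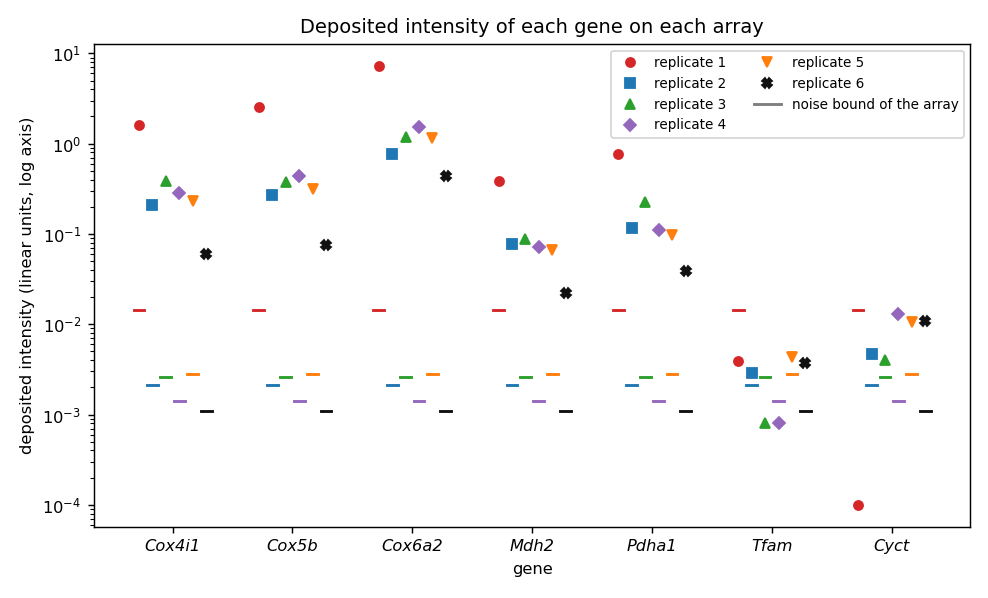
Deposited intensity (linear units on a log axis) of the 7 genes, 1 symbol per array, with a short line for the noise bound of that array. Replicate 1 lies highest and replicate 6 lowest for the 5 bright genes, while Tfam lies near the bounds and Cyct is at 0.0001 on replicate 1.

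Among the oxidase subunits, Cox6a2 gave one of the brightest signals of the array, between the 5th and the 9th place of 223 on every array. Its deposited intensities on replicates 1 to 6 were 7.26, 0.774, 1.19, 1.53, 1.16 and 0.433. Replicate 1 was high and replicate 6 low, a 16.8-fold range that carries the difference in overall signal. After centring the level was 6.15 ± 0.51 (SD, n = 6), with a 2.57-fold range between replicates 1 and 6. The range was 1.49-fold after quantile normalization, with the lowest value then on replicate 2.

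Cox5b, a subunit on the matrix side of the enzyme, varied more. Its deposited intensities were 2.55, 0.271, 0.373, 0.442, 0.315 and 0.0762 on replicates 1 to 6. Replicate 6 stood furthest from the rest on the low side. The centred level was 4.33 ± 0.79 (SD, n = 6), ranging 5.13-fold, and the SD was 0.46 without replicate 6 and 0.40 after quantile normalization.

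Cox4i1, the common form of subunit IV, gave 1.63, 0.211, 0.388, 0.286, 0.230 and 0.0599 in deposited units. Its centred level of 3.94 ± 0.76 (SD, n = 6) was highest on replicates 3 and 1, at 4.65 on both, and lowest on replicate 6, at 2.60. The range was 4.16-fold, and the SD was 0.43 without replicate 6. Another subunit on the array, Cox8a, was also highest on replicate 1, at 3.50, and lowest on replicate 6, at 1.81, with a level of 2.99 ± 0.61 (SD, n = 6).

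The matrix enzymes were also lowest on replicate 6. Mdh2 gave deposited intensities of 0.388, 0.0772, 0.0878, 0.0723, 0.0663 and 0.0220 on replicates 1 to 6. Replicates 1 to 5 lay within 1.97 to 2.58 on the centred scale and replicate 6 at 1.15, so the SD of 0.53 fell to 0.25 without that sample. Pdha1 gave 0.771, 0.116, 0.228, 0.111, 0.0967 and 0.0393. It was highest on replicate 3 after centring, at 3.89, ahead of replicate 1 at 3.58, with replicate 6 lowest at 1.99 and a level of 2.95 ± 0.70 (SD, n = 6).

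A lowest value on replicate 6 was common on this scale. It held for 5 of the 7 genes, beside 46.9% of the 162 named genes above 0 on all arrays. The median centred level of the 35 brightest probes was also lowest there, at 3.10, and highest on replicate 1, at 4.51, with 3.68 to 4.13 on the others. The part of this array-wide pattern in the values of single genes was not tested. After quantile normalization, which gives all arrays the same distribution, replicate 6 still held the lowest values of Cox4i1, Cox5b, Mdh2 and Pdha1, beside 35.2% of named genes, and no longer that of Cox6a2.

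The spread of the 5 bright genes was then set beside that of other genes. Their median SD was 0.70, beside 0.64 for the 175 probes and 0.58 for the 30 named genes at least as bright as Mdh2. Of these 30 genes, 27 had a smaller SD than Cox5b, 26 than Cox4i1, 23 than Pdha1, 13 than Mdh2 and 12 than Cox6a2.

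**Figure D2:**
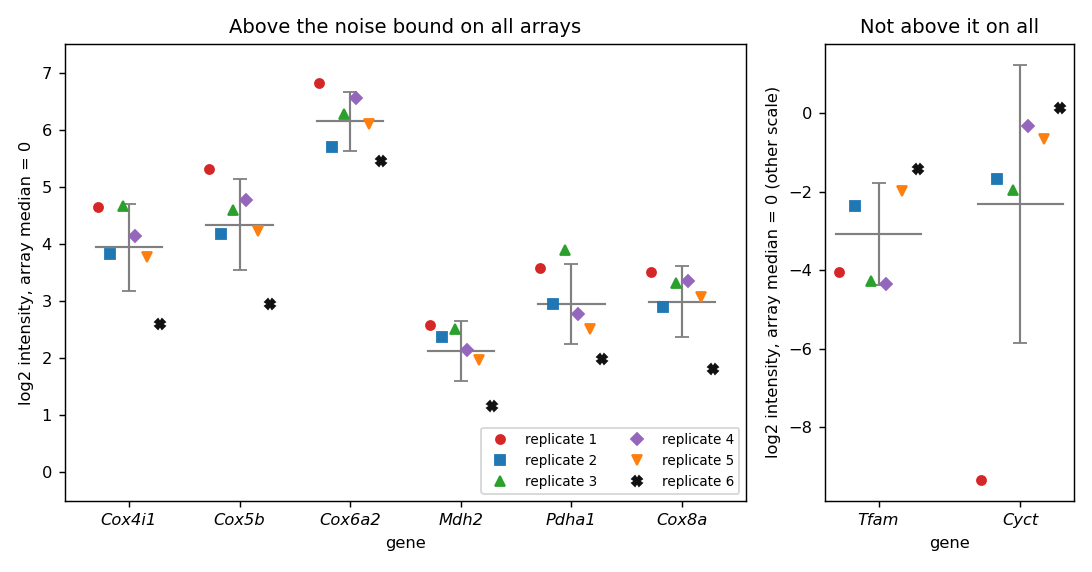
Centred log2 intensity (array median = 0) of 5 of the 7 genes and of Cox8a on the left, and of Tfam and Cyct on a wider axis on the right, with 1 symbol per array and grey lines for the mean ± SD over 6 arrays. Replicate 6 lies lowest for every gene on the left, and on the right the points of Tfam on replicates 1, 3 and 4 and of Cyct on replicate 1 lie under the noise bound.

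Tfam lay near or under the noise bound, and Cyct was under it on replicate 1 only. Samples under the bound cannot be ordered. Tfam had deposited intensities of 0.0039, 0.0029, 0.0008, 0.0008, 0.0043 and 0.0037 on replicates 1 to 6. Replicates 2, 5 and 6 exceeded their noise bounds, at 1.38, 1.54 and 3.36 times the bound, and replicates 1, 3 and 4 did not. The centred level was -3.07 ± 1.30 (SD, n = 6), and with the low arrays set to their bounds the range was 4.35-fold and the SD 0.71. For 3 of the 6 samples there is therefore only an upper bound on the Tfam signal.

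Cyct, which in the animal is known from male germ cells, gave 0.0001, 0.0047, 0.0040, 0.0131, 0.0107 and 0.0108 in deposited units. It had 1.54 to 9.82 times the bound on replicates 2 to 6 and lay far under it on replicate 1, the array with the largest total. Its centred SD of 3.54 was 0.89 without replicate 1 and 0.95 with that array set to its bound. In deposited units only 3 of the 175 probes had their lowest value on replicate 1, Cyct among them, while 146 had their highest there. Of the other germ cell genes measured, the lactate dehydrogenase gene Ldhc was above the bound on 6 of 6 arrays, at 0.0040 to 0.0367. Pdha2, the testis partner of Pdha1, was above the bound on 0 of 6.

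Ratios between 2 genes on the same array do not change when the whole array is multiplied by 1 factor, though they do under quantile normalization. The size of such a ratio depends on the probes as well as on the transcripts, so only its variation over the arrays is read. For the 5 bright genes the SD of the log2 ratio was under 0.5 in 8 of 10 pairs, beside 24.3% of the 7503 pairs of named genes above the noise bound on all arrays and 16.1% of all 13041 pairs of genes above 0. The median over the 10 pairs was 0.38. It was 0.73 over the 7503 pairs, but 0.46 over the 435 pairs of genes at least as bright as Mdh2, a set chosen after the values were seen. Most of these bright pairs were thus under 0.5 as well, and the 10 pairs share 5 genes and are not independent. Ratios of bright genes were thus tighter in general, and 8.51% to 62.3% of these bright pairs had a smaller SD than the single pairs described here.

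**Figure D3:**
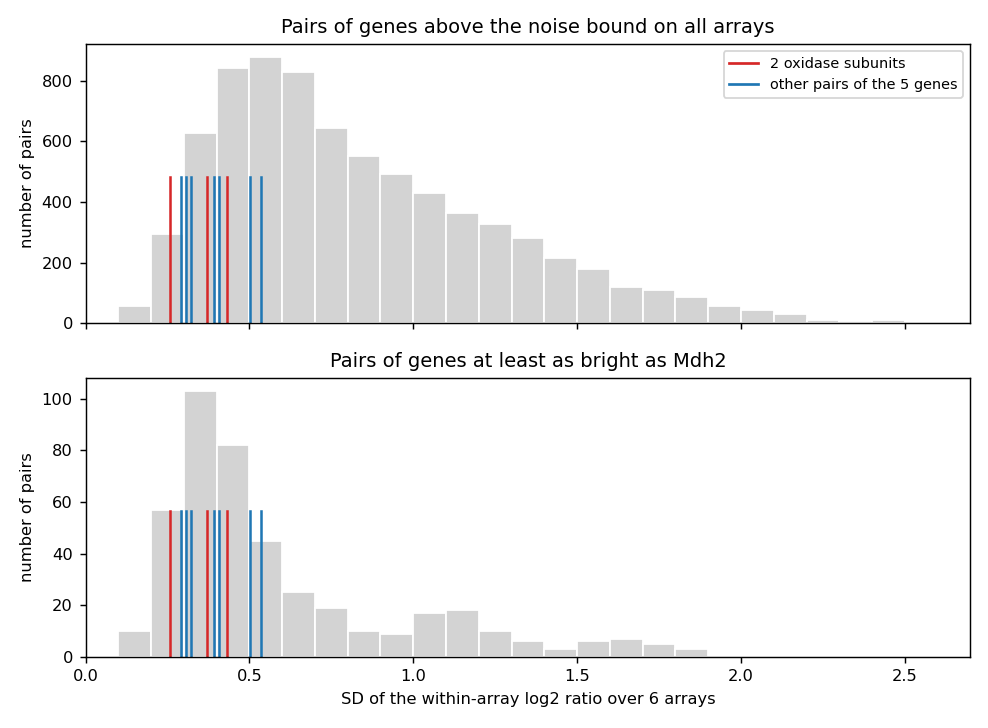
Histograms of the SD of the within-array log2 ratio over 6 arrays, for 7503 pairs of genes above the noise bound (top) and for 435 pairs of genes at least as bright as Mdh2 (bottom), with vertical lines for the 10 pairs of the 5 bright genes. The lines lie between 0.26 and 0.53, on the left flank of the top histogram and across the peak of the bottom one.

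Cox4i1 and Cox5b had the smallest ratio SD of the 10 pairs when each array was only centred. After quantile normalization 4 pairs had a smaller one, down to 0.13 for Cox5b to Mdh2, and without replicate 6 so did 3 pairs, down to 0.17 for Cox5b to Cox6a2. Cox4i1 divided by Cox5b was 0.637, 0.780, 1.04, 0.646, 0.731 and 0.786 on replicates 1 to 6. Replicate 3 stood apart on the high side and the other 5 lay close together. The SD of the log2 ratio was 0.26, less than the 0.76 and 0.79 of the single genes, and it was 0.15 without replicate 3. Of the 435 bright pairs, 8.51% had a smaller SD.

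Over all 6 arrays, the ratios of Cox6a2, the muscle form, to the other subunits varied more than that of Cox4i1 to Cox5b. Cox5b divided by Cox6a2 was 0.352, 0.350, 0.312, 0.290, 0.270 and 0.176, close together on replicates 1 to 5 and low on replicate 6. Its SD was 0.37, and 0.17 without replicate 6. Cox4i1 divided by Cox6a2 was 0.224, 0.273, 0.325, 0.187, 0.198 and 0.138, high on replicate 3 and low on replicate 6, with an SD of 0.43. On replicate 6, the array with the smallest total, both other subunits were thus at their lowest relative to Cox6a2. Cox8a had ratio SDs of 0.25 to Cox5b, 0.25 to Cox4i1 and 0.30 to Cox6a2, so the 6 pairs of the 4 subunits ran from 0.25 to 0.43. The wider spread of Cox6a2 to Cox5b and to Cox8a depended on replicate 6. Without it the SD was 0.20 for Cox8a to Cox6a2 and 0.33 for Cox4i1 to Cox6a2, beside 0.29 for Cox4i1 to Cox5b. The ratio of Cox8a to Cox5b lay between 0.375 and 0.457 on replicates 2 to 6 and at 0.286 on replicate 1, with an SD of 0.12 without that array.

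Between the matrix enzymes, Mdh2 divided by Pdha1 was 0.503, 0.667, 0.385, 0.652, 0.686 and 0.560 on replicates 1 to 6. It was lowest on replicate 3, and its SD of 0.32 fell to 0.19 without that sample. Replicate 3 was also where Pdha1 stood highest relative to Cox5b and to Cox6a2, with Cox5b over Pdha1 at 1.64 there and 1.94 to 3.99 elsewhere. Pdha1 to Cox6a2 was the loosest pair, with an SD of 0.53 and a 2.63-fold range, and Cox5b to Pdha1 the next at 0.50. Between enzymes and subunits, the ratio SD was 0.25 for Cox8a to Mdh2, 0.29 for Cox4i1 to Pdha1 and 0.31 for Cox4i1 to Mdh2. Cox5b to Mdh2 had an SD of 0.39. Cox6a2 to Mdh2 had 0.41, and 0.24 without replicate 2, the sample where that ratio was lowest.

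**Figure D4:**
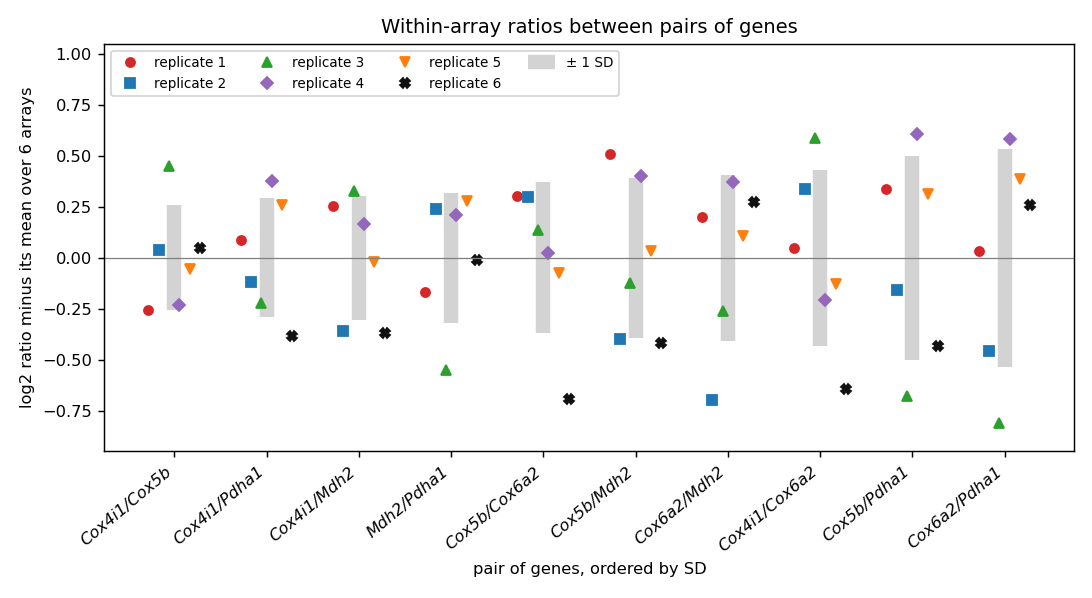
Within-array log2 ratio of each pair of the 5 bright genes minus its mean over 6 arrays, with 1 symbol per array, a grey bar for ± 1 SD, and pairs ordered by SD. Replicate 3 lies apart in Cox4i1/Cox5b, and replicate 6 lies low in Cox5b/Cox6a2 and Cox4i1/Cox6a2.

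The genes whose ratio to each of the 5 varied least, of 122 other named genes above the noise bound, included fibre, sugar and fat genes. Nearest to Cox4i1 were the muscle transcription factor Mef2c (SD 0.20), the ribosomal protein gene Rps29 (0.22) and the growth factor receptor Fgfr2 (0.23), with Cox8a in the 4th and Cox5b in the 5th place. Nearest to Cox5b were Cox8a (0.25), Cox4i1 (0.26) and the laminin chain Lamc1 (0.33). Nearest to Cox6a2 were the glycolytic enzyme Gapdh (0.17), the growth factor Vegfb (0.21) and the heart-type lactate dehydrogenase Ldhb (0.21), and its closest subunit was Cox8a in the 6th place, with Cox5b in the 16th and Cox4i1 in the 30th. Nearest to Mdh2 were Mef2c (0.13), the fatty acid carrier Fabp4 (0.16) and the fast myosin Myh1 (0.19). Nearest to Pdha1 were the fast myosin Myh4 (0.16), the long-chain acyl-CoA dehydrogenase Acadl (0.19) and the filament gene Des (0.26). These are descriptions over 6 arrays.

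Correlations of the centred levels over the 6 arrays were tested for all 13041 pairs of named genes, with exact two-sided permutation tests over the 720 pairings and Benjamini-Hochberg adjustment over all pairs. Of the 10 pairs of the 5 bright genes, 0 passed an adjusted p of 0.05, as did 0% of all pairs, and the smallest adjusted p of any pair was 0.12. With arrays scaled to 28S ribosomal RNA instead, 5 of the 10 passed, with adjusted exact permutation p-values from 0.0437 to 0.0478. The share of all pairs passing under that scaling is not given here, so this count is not read as particular to these genes. The SDs of the 5 genes were 1.04 to 1.39 under it, beside 0.51 to 0.79 after centring. At an unadjusted exact permutation p under 0.05, 7 of 10 had a positive Pearson's r, beside 11.5% of all pairs, and 4 of 10 a positive Spearman's rho, beside 7.29%. Those shares include dim genes, and none is given here for the bright pairs alone. The median r was 0.90 over the 10 pairs, 0.10 over all pairs and 0.70 over the 435 bright pairs. The median rho was 0.77 over the 10 pairs and 0.66 over the bright pairs.

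Cox5b and Cox6a2 held the same order of samples. Pearson's r was 0.93, with an exact permutation p of 0.00139, the smallest possible here, which became 0.12 on adjustment. Spearman's rho was 1.00, with an exact p of 0.00278, or 0.14 adjusted. Leaving out replicates 1 and 6 left r at 0.90, whereas quantile normalization turned it to -0.25, with an adjusted exact permutation p of 0.86.

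Cox4i1 and Cox5b had an r of 0.95, with an exact permutation p of 0.0111 that became 0.15 when adjusted. Their rho was 0.77, with an exact p of 0.103, or 0.38 adjusted. Leaving out replicates 3 and 6, farthest from the median of Cox4i1, gave 0.99, leaving out replicates 1 and 6 gave 0.70, and quantile normalization gave 0.89. For Cox4i1 and Cox6a2 r was 0.84, its exact permutation p 0.0333 and the adjusted value 0.21. Here rho was again 0.77, with the same exact p of 0.103, or 0.38 adjusted. Leaving out replicates 3 and 6 gave 0.87, leaving out replicates 1 and 6 gave 0.52, and quantile normalization turned the sign, to -0.36. That scaling matches the bright end of each array to the others, and under it each of the 4 relations of Cox6a2 was negative. Their adjusted exact permutation p-values were 0.70 to 0.86. Under it a gene carries only its place on the array. Cox6a2 was at 5.68 on replicate 2, where it was 9th, at 6.07 on replicate 3, where it was 6th, and at 6.22 to 6.26 on the others.

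Mdh2 and Pdha1 had a similar relation under both scalings, with an r of 0.90 after centring and 0.94 after quantile normalization. The exact permutation p of the first was 0.00417, which became 0.13 when adjusted. Their rho was 0.94, with an exact p of 0.0167, or 0.19 adjusted, and r stayed at 0.90 when replicates 1 and 6 were left out.

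Cox4i1 was also close to both enzymes. With Pdha1 its r was 0.92, with an exact permutation p of 0.00694, or 0.14 adjusted, and its rho 0.94, with an exact p of 0.0167, or 0.19 adjusted. With Mdh2 its r was 0.95, with an exact permutation p of 0.00833, or 0.15 adjusted, and its rho 0.89, with an exact p of 0.0333, or 0.24 adjusted. Leaving out replicates 3 and 6 gave 0.88 for Pdha1 and 0.75 for Mdh2, and leaving out replicates 1 and 6 gave 0.90 and 0.70.

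The remaining relations fell further when replicates 1 and 6 were left out. Cox6a2 to Mdh2 had an r of 0.70, with an exact permutation p of 0.113, or 0.35 adjusted, and a rho of 0.71, with an exact p of 0.136, or 0.42 adjusted. It was -0.18 when those samples were left out. Cox6a2 to Pdha1 had an r of 0.65, with an exact permutation p of 0.163, or 0.42 adjusted, and a rho of 0.60, with an exact p of 0.242, or 0.54 adjusted. It was 0.10 when they were left out. Cox5b to Pdha1 had an r of 0.78, with an exact permutation p of 0.0583, or 0.26 adjusted, and a rho of 0.60, with an exact p of 0.242, or 0.54 adjusted. It was 0.36 when they were left out. Cox5b to Mdh2 had an r of 0.90, with an exact permutation p of 0.0250, or 0.19 adjusted, a rho of 0.71, with an exact p of 0.136, and an r of 0.20 when they were left out. A p that misses the threshold with 6 samples does not show that genes varied independently.

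Other genes of energy metabolism on the array gave the setting of these values. Of 34 listed respiratory chain genes 5 were measured, of which Cox8a was the only one outside the 7 genes. Of 17 genes of pyruvate dehydrogenase and the citric acid cycle, Pdha1 and Mdh2 were measured. Of 12 genes of mitochondrial genome upkeep and uncoupling, Tfam and the carrier Ucp3 were measured. Ucp3 was even over the arrays, at 0.61 ± 0.21 (SD, n = 6), and was lowest on replicate 5. Of 14 fatty acid oxidation genes 5 were measured, 5 of them above the noise bound on all arrays, and their median SD was 0.43. They ran from Hadh (SD 0.28) and the regulator Ppara (0.33) to Acadl (0.71) and the medium-chain dehydrogenase Acadm (0.92). Of 15 glycolysis genes 6 were measured, again 6 above the bound on all arrays, with a median SD of 0.50. They ran from Pgk1 (0.24) and Aldoa (0.46) to Hk1 (0.56) and Ldha (0.75), and 5 of 6 were lowest on replicate 6, beside the 46.9% of all named genes.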

How the data were processed

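The authors deposited 1 table of intensities, with 1 value per probe and array for 223 probes and 6 arrays. The values are linear, and some are below 0, so some background had been subtracted. The scanner, array type, background method and normalization are not given in the sources used here. Per the labels, 3 micrograms of total RNA from cryosections were used per sample. Every 2 arrays differed in their values.

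The platform annotation gave gene symbols (205 probes named, 18 unnamed), and 7 of the 7 symbols matched the RefSeq gene table. Probes above 0 on all arrays (175, 162 named genes) were converted to log2 without a pseudocount and centred on each array's median. For a gene with more than 1 probe, the brighter one was used. Ratios were taken within arrays. The number of arrays limits the precision. Python 3.11.15, numpy 2.4.6, scipy 1.17.1 and pandas 2.3.3 were used. The pair statistics were tested on 20 simulated data sets.

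The genes and lists were chosen with earlier results of these data known. Named are the 7 genes, the 3 genes closest in ratio to each gene above the noise bound on all arrays, and up to 4 genes per list (the 2 smallest and 2 largest SDs). Any other gene was named after its values were seen. Alternatives were no scaling, quantile normalization, scaling to 28S ribosomal RNA, the noise bound added or used as a floor, only probes above it, the bound doubled, and each array left out. Leaving out replicates 1 and 6 together was added after the data were seen.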

Additional observations from a re-analysis of the deposited data

Results flagged for a closer look

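One sample lay far from the other 5 in 3 of the 23 value sets checked (genes, ratios and array totals), by Dixon's 95% criterion, and about 1.15 would be expected by chance. Cyct stood at -9.34 on the centred log2 scale on replicate 1, where its deposited value lay under the noise bound. The ratio of Cox4i1 to Cox5b was 1.04 on replicate 3, above the other 5 arrays, and it passed the criterion only narrowly. The summed intensity of replicate 1 was 165.3, far above the other arrays. The ratio and the sum were flagged in linear units, whereas the SDs of ratios are on the log2 scale. As a log2 ratio minus its mean, Cox4i1 to Cox5b stood at 0.45 on replicate 3. Its next highest value was 0.050, on replicate 6, and its lowest -0.25, on replicate 1. The criterion was not tested on the log2 scale for that ratio or that sum. Both flags therefore hold for linear units only and are not read as outliers on the log2 scale.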

How the results depend on the processing

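Ratios within arrays kept within 1.5 times their main SD in 153 recomputed values and not in 12, counting those with Cox8a. SDs of single genes did so in 65 of 89, and correlations kept their sign and side of the adjusted threshold in 111 of 120. The cause of the other values was not tested, except that arrays left unscaled keep their difference in total. These counts do not measure stability, since part of them was fixed in advance. The 5 bright genes and Cox8a exceeded the noise bound on all arrays. Flooring at it or keeping only probes above it thus could not move their ratios, and flooring left their correlations unchanged. No pair passed in the main analysis, and runs without 1 array have fewer pairings, so a change of side was unlikely there. Without scaling, the SDs were 1.54 for Cox4i1, 1.63 for Cox5b, 1.37 for Cox6a2, 1.32 for Mdh2 and 1.44 for Pdha1. Scaled to 28S they were 1.29, 1.39, 1.15, 1.04 and 1.17. After quantile normalization the SD was 0.40 for Cox5b and 0.23 for Cox6a2. With the noise bound added it was 0.66 for Tfam and 0.93 for Cyct, and with it as a floor 0.71 and 0.95. Without replicates 1 and 6 it was 0.41 for Cox4i1, 0.28 for Cox5b, 0.25 for Mdh2 and 0.77 for Cyct. With each array left out in turn, it ran from 0.43 to 0.85 for Cox4i1, 0.46 to 0.89 for Cox5b, 0.25 to 0.59 for Mdh2 and 0.89 to 3.95 for Cyct.

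After quantile normalization the SD of the log2 ratio was 0.65 for Cox4i1/Cox6a2, 0.19 for Cox4i1/Mdh2 and 0.13 for Cox5b/Mdh2. Without replicates 1 and 6 it was 0.16 for Cox5b/Cox6a2. With each array left out it ran from 0.15 to 0.29 for Cox4i1/Cox5b, 0.17 to 0.41 for Cox5b/Cox6a2, 0.24 to 0.45 for Cox6a2/Mdh2 and 0.19 to 0.36 for Mdh2/Pdha1. Quantile normalization turned the sign of r for Cox6a2 with Cox4i1 (-0.36), Cox5b (-0.25), Mdh2 (-0.33) and Pdha1 (-0.40). The adjusted exact permutation p-values of these 4 were 0.70 to 0.86. Scaled to 28S, 5 pairs passed the adjusted threshold: Cox4i1 with Cox5b (0.98) and Mdh2 (0.99), Cox5b with Cox6a2 (0.97) and Mdh2 (0.99), and Cox6a2 with Mdh2 (0.94). The 28S probe alone sets that scale, and the share of all pairs passing under it is not given here. The count of genes above the noise bound on all arrays was 5 with the bound doubled and 6 without replicate 1. No paired analysis was possible because there is 1 group. Signal over background left only a bound for Tfam on replicates 1, 3 and 4 and for Cyct on replicate 1.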
